A study of Saccharomyces cerevisiae with 6 samples.

Results

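The 8 genes described here are SER3 and its partners in the making, breaking down and interconversion of serine and glycine in the budding yeast Saccharomyces cerevisiae: SER3, SER33, SER1, SER2, CHA1, CHA4, SHM1 and GLY1. They were taken by gene symbol, and each was read by 1 probe set, out of 5449 named genes on the array. RNA from 3 samples of a strain whose histone H4 has histidine in place of arginine at residue 45 (H4R45H) was compared with RNA from 3 samples of the strain WY139, which has wild-type H4. All samples grew in YPD, a rich medium with glucose, and were harvested in mid-log phase at an optical density of 0.5 to 0.7. No drug, temperature shift or other agent was named for either strain, and the labels do not say which copy of the H4 gene carries the substitution or whether the replicates were separate cultures. Without that, a p-value speaks only to how these 6 arrays scattered, and part of that scatter may be technical.

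Cells make serine from phosphoglycerate, an intermediate of glycolysis, through a dehydrogenase (SER3 or SER33), an aminotransferase (SER1) and a phosphatase (SER2). Serine hydroxymethyltransferases then turn serine into glycine and a one-carbon unit, while GLY1 makes glycine from threonine and CHA1 breaks serine and threonine down. SER3 is known for its control in serine-rich medium: a noncoding RNA, SRG1, is transcribed across the SER3 promoter, nucleosomes are laid down in its wake, and SER3 is kept low. Histone and nucleosome assembly mutants are known to release it. H4R45H belongs to the Sin class of histone mutations, which ease the need for the SWI/SNF remodelling complex at some promoters.

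The signals are linear intensities, which do not allow 1 gene's level to be set against another's. Array means lay between 277 and 287, and array medians between 148 and 151 in wild type and between 159 and 163 in H4R45H. The H4 probe set, named for HHF1, gave 1197 ± 30.8 and 1173 ± 96.1 (n = 3, SD) and cannot show a point mutation. All differences are H4R45H minus wild type on the log2 scale, from 1 limma fit to the whole array. A call means a Benjamini-Hochberg adjusted p under 0.05. In that fit 66.2% of all genes were called, 37.1% higher and 29.1% lower (2022 and 1583 genes, against 1464 and 2006 after quantile normalization). The median difference of all genes was 0.05 as deposited, -0.07 after quantile normalization, -0.05 after median centring and -0.01 after cyclic loess normalization. Dim genes were higher and bright genes lower as a body, so each gene is also set beside genes of like wild-type signal. In RNA from whole cultures, fewer cells with a transcript and less of it per cell cannot be told apart. Of the haploid mating-type markers, STE2 of a cells gave 709 ± 4.19 and STE3 of alpha cells 18.9 ± 2.46 in wild type (SD, n = 3). All 4 alpha-cell markers were called higher in H4R45H, 2 of them after quantile normalization, against 37.1% of all genes as deposited. STE3, MF(ALPHA)1 and MF(ALPHA)2 were in the dimmest class by mean over all arrays, where 64.0% of genes were called higher. SAG1 was in a brighter class, where 37.6% were called higher, and rose from 94.8 ± 1.93 to 247 ± 25.5 (SD, n = 3). The SAG1 log2 difference was 1.38, with 1.26 after quantile and 1.34 after cyclic loess normalization. STE3 had 1.56 as deposited, and 0.91 and 0.999 after these. MF(ALPHA)1 and MF(ALPHA)2 were not called after either. The summed signal of the 4 alpha-cell markers was 131 to 141 in wild type and 309 to 365.5 in H4R45H. Of the 7 a-cell markers 4 were called higher and 2 lower. Their summed signal was 2782 to 2853 and 2848 to 3049. The part of these markers in the results below was not tested.

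SER3, which encodes a phosphoglycerate dehydrogenase, had signals of 224.1, 241.9 and 248.5 in wild type and of 1071.6, 1114.0 and 1172.6 in H4R45H. The strains were far apart: the dimmest H4R45H array lay well above the brightest wild-type array, and replicates within a strain differed little. The log2 difference was 2.23 (SE 0.059), a 4.70-fold higher signal, and the coefficient of variation was 5.30% in wild type and 4.53% in H4R45H. SER3 was chosen by this difference and the other 7 genes with theirs in view, so the signals and log2 differences of all 8 are a description and carry no test. SER3 stood 41st of the 5449 genes by size of rise. All 40 genes above it had lower wild-type means than SER3, and for 37 of them that mean was under 80. Among the 545 genes with wild-type means of 201 to 270, SER3 had the largest difference, in a class whose median was -0.10 and in which 15 genes were at least 2-fold higher. The next genes there were HSP26, a small heat shock protein (log2 difference 2.20), SNZ1, a gene of vitamin B6 synthesis (1.79), and YBR085C-A (1.77) and YHR138C (1.71).

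**Figure D1:**
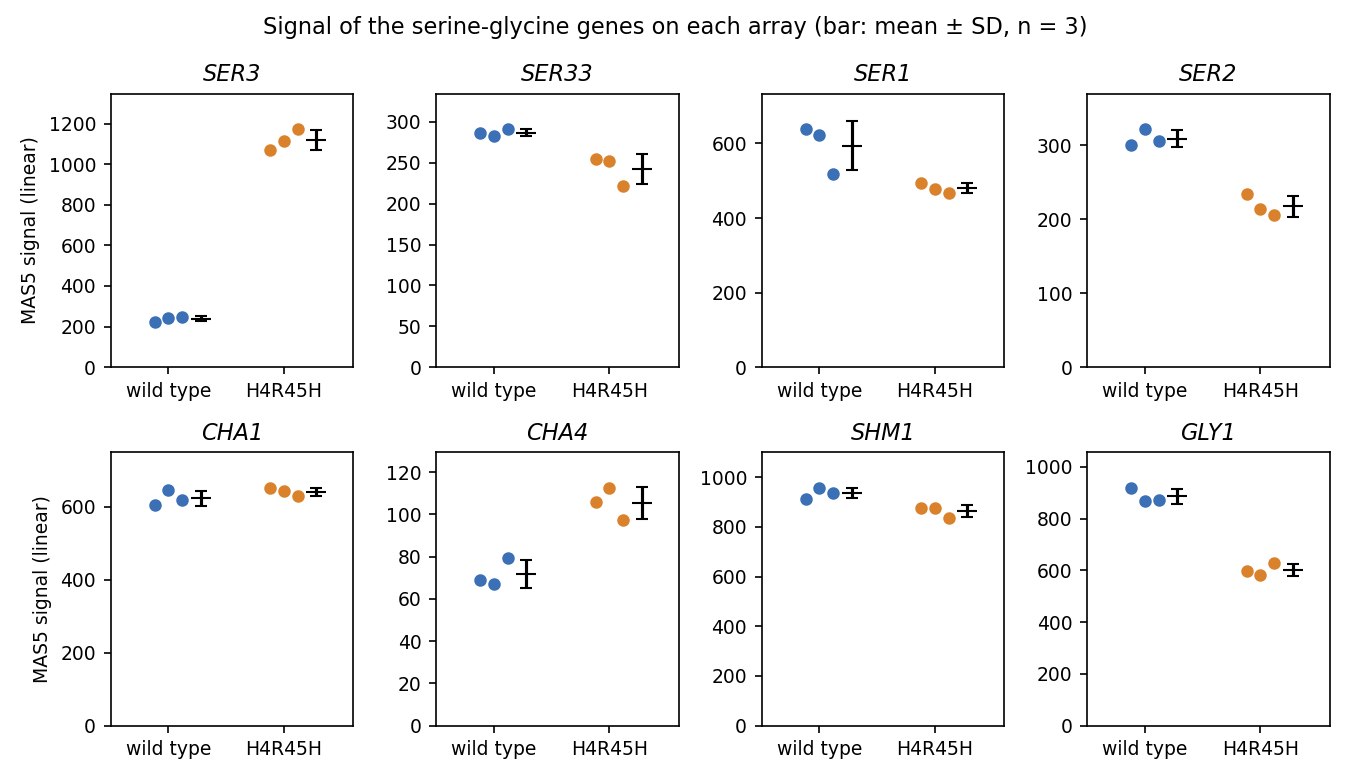
MAS5 signal (linear axis from 0) of the 8 genes on each array, with blue points for wild type, orange points for H4R45H and a bar for the mean ± SD (n = 3). SER3 is at 224.1 to 248.5 in wild type and 1071.6 to 1172.6 in H4R45H, while SER33, SER1, SER2 and GLY1 are lower, CHA4 is higher and CHA1 overlaps between the strains.

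SER33 encodes the second phosphoglycerate dehydrogenase, which catalyses the same reaction as SER3. Its signals were 286.1, 282.5 and 291.0 in wild type and 254.8, 251.9 and 221.1 in H4R45H. The strains did not overlap, and H4R45H replicate 3 was the lowest. The log2 difference was -0.24 (SE 0.068), a signal 1.18-fold lower, against a median of -0.15 for the 545 genes of like wild-type signal. It was -0.18 without that array. SER33 had the 206th largest fall of those 545 genes, of which 261 were called lower. Within each array, the ratio of the SER3 signal to the SER33 signal has no absolute meaning, but its change does. On the log2 scale this ratio was -0.35, -0.22 and -0.23 in wild type and 2.07, 2.14 and 2.41 in H4R45H. The isozymes thus parted by 2.48 on the log2 scale (SE 0.11), a 5.56-fold change of the ratio. Both probe sets are of the type designed for a single transcript. Their sequences were not used here, and binding of one isozyme's RNA to the other's probes was not tested.

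The isozyme pairs of amino acid metabolism listed for comparison, 12 with SER3 and SER33, are set beside that split. SER3 and SER33 were chosen with their values in view, so the other pairs are a description and no test of its size. Over the other 11 pairs the size of the difference between partners was 0.18 to 1.84 on the log2 scale, with a median of 0.29. The nearest was the pair of glutamate dehydrogenases, with GDH1 lower (log2 difference -0.46, limma adjusted p = 4.3e-05) and GDH3 higher (1.38, adjusted p = 9.0e-07). GDH3 is the isozyme known for use on carbon sources other than glucose. GDH1 had -0.30 after cyclic loess normalization. As deposited, 3 pairs (LYS20 and LYS21, ASN1 and ASN2, SHM1 and SHM2) had both partners called lower. None of the 3 kept both calls after quantile or cyclic loess normalization, where LYS21 had -0.12 and -0.07, ASN2 -0.04 and -0.04, and SHM1 0.02 and 0.04. The LYS21 call was also lost without any one of 4 arrays (log2 differences of -0.11 to -0.23). In 6 others, one partner was called lower and its mate was not called.

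**Figure D2:**
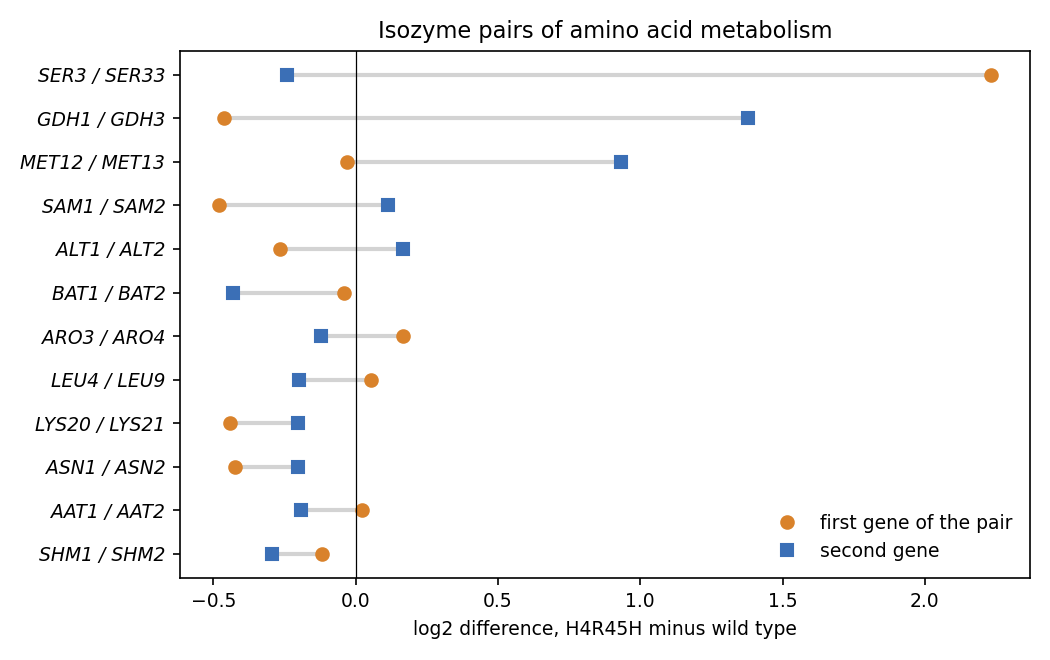
Log2 difference (H4R45H minus wild type, x axis) of both genes of 12 isozyme pairs, with an orange point for the first gene named, a blue square for the second and a grey line for the gap between them. SER3 and SER33 are 2.48 apart, GDH1 and GDH3 1.84, and the median gap of the 11 pairs other than SER3 and SER33 is 0.29.

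The 2 later steps of serine synthesis were lower. SER1, the phosphoserine aminotransferase, gave 638.3, 623.8 and 518.0 in wild type and 493.9, 479.1 and 466.6 in H4R45H. Wild type replicate 3 stood apart from the other two, though still above every H4R45H array. The log2 difference was -0.30 (SE 0.077), -0.40 without that array, and the median of genes of like signal was -0.14. SER1 had the 175th largest fall in that class of 545 genes, of which 267 were called lower. After cyclic loess normalization SER1 had a difference of -0.18 and was not called. SER2, the phosphoserine phosphatase that completes serine, gave 300.1, 321.5 and 304.9 in wild type and 233.3, 213.5 and 205.8 in H4R45H. All H4R45H arrays lay below all wild-type arrays, by a log2 difference of -0.51 (SE 0.066), a signal 1.42-fold lower. In its class of 545 genes of like signal SER2 had the 66th largest fall, and the class median was -0.15. The dehydrogenase gene SER3 was therefore the only one of the 4 synthesis genes with a higher signal.

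GLY1, the threonine aldolase, had the largest fall of the 8 genes. Its signals were 919.5, 868.8 and 870.9 in wild type and 597.3, 582.2 and 627.3 in H4R45H, with a wide gap between the strains. The log2 difference was -0.56 (SE 0.050), a signal 1.47-fold lower, and in its class of bright genes, whose median was -0.21, it had the 36th largest fall of 545. SHM1, the mitochondrial serine hydroxymethyltransferase, gave 914.3, 957.8 and 937.2 in wild type and 877.9, 877.6 and 834.7 in H4R45H. The strains did not overlap but lay close together. The difference of -0.12 (SE 0.046) was smaller in size than the median of its brightness class, -0.21, and turned to 0.02 after quantile normalization and 0.04 after cyclic loess normalization, so no direction is given for SHM1.

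CHA1, the serine and threonine deaminase that is induced when these amino acids are plentiful, gave 605.0, 645.6 and 619.9 in wild type and 652.9, 642.9 and 630.9 in H4R45H. The strains overlapped, with a log2 difference of 0.04 (SE 0.049) that was 0.12 after quantile normalization, 0.18 after cyclic loess normalization and -0.06 after median centring. CHA4, the activator of CHA1 that is also known to switch on SRG1 in serine, gave 69.1, 66.9 and 79.2 in wild type and 105.9, 112.6 and 97.5 in H4R45H. The strains did not overlap, and the log2 difference was 0.56 (SE 0.089), a signal 1.47-fold higher. CHA4 was the dimmest of the 8 probe sets. Genes of like wild-type signal had a median of 0.24, and the CHA4 difference was 0.31 after quantile normalization and 0.35 with a pseudocount of 50. In that class CHA4 had the 131st largest rise of 545 genes, of which 285 were called higher.

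Across the 8 genes, 2 passed the call rule as higher, 5 as lower and 1 did not pass it, and the arrays of the strains did not overlap for 7. Over all genes 66.2% were called and the arrays did not overlap for 71.5%. These counts come from the values that chose the genes, and nothing is read from them. The median difference of the 8 was -0.18, against 0.05 over all genes. Quantile normalization gave 3 higher and 4 lower, and cyclic loess 3 higher and 3 lower. Set apart from SER3, the other differences ran from -0.56 to 0.56.

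**Figure D3:**
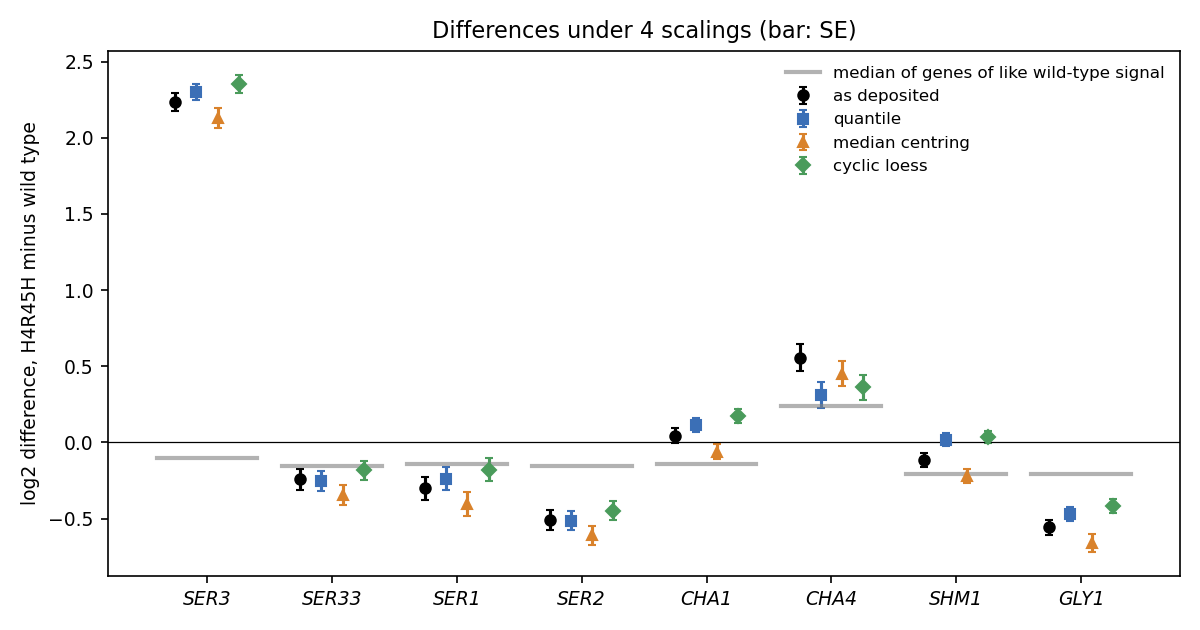
Log2 difference (H4R45H minus wild type, y axis) of the 8 genes as deposited and after quantile normalization, median centring and cyclic loess normalization, with bars for the SE. Grey lines are medians of the 545 genes in each gene's class of wild-type signal. SER3 stays between 2.13 and 2.35, while CHA1 and SHM1 cross 0.

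The genes that feed or use serine and glycine were read from 7 lists, 33 measured genes in all. These and the later lists were written with earlier results of these data known, so their counts are a description. Of the 33 genes 19 fell and 6 rose in the limma fit, against 29.1% called lower and 37.1% called higher over all genes. Their median difference was -0.21, against 0.05 over all genes. After cyclic loess normalization 14 fell and 6 rose. Most of them are bright, and in the brightest class of wild-type signal 400 of 545 genes were called lower. The glycine cleavage system, a mitochondrial complex that releases a one-carbon unit from glycine, had 3 of 4 genes lower. GCV3, its lipoyl carrier, fell from 994 ± 6.93 to 736 ± 18.4 (n = 3, SD; log2 difference -0.43, SE 0.044, limma adjusted p = 1.3e-05), a difference that was -0.28 after cyclic loess normalization. GCV1 and GCV2 fell by 0.21 and 0.19. Both calls were lost after cyclic loess normalization, and that of GCV2 after quantile normalization too, and LPD1, which this complex shares with other dehydrogenases, had -0.03 (adjusted p = 0.63).

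Folate enzymes, which carry the one-carbon units, had 4 of 6 genes lower and 1 higher, against 29.1% and 37.1% over all genes. The cytosolic serine hydroxymethyltransferase SHM2 fell from 1171 ± 33.5 to 954 ± 17.2 (n = 3, SD; log2 difference -0.30, limma adjusted p = 1.7e-04). The methylenetetrahydrofolate dehydrogenase MTD1 fell by 0.47, and the trifunctional synthases MIS1 (mitochondrial) and ADE3 (cytosolic) fell by 0.46 and 0.28. After quantile and cyclic loess normalization SHM2 had -0.14 and -0.13, and ADE3 -0.14 and -0.13. MET13, the reductase that commits one-carbon units to methionine, rose from 86.8 ± 4.76 to 166 ± 6.78 (n = 3, SD; 1.91-fold, limma adjusted p = 1.7e-06). The MET13 log2 difference was 0.93 as deposited, 0.77 after quantile normalization and 0.66 with a pseudocount of 50. MET12, the isozyme of MET13, had a difference of -0.03 (limma adjusted p = 0.67).

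Threonine, the substrate of GLY1, is made from aspartate by HOM3, HOM2, HOM6, THR1 and THR4. Of these 5 genes 3 fell and 0 rose, against 29.1% and 37.1% over all genes. All 5 are bright, and bright genes were lower as a body. The last enzymes of the branch, the kinase THR1 and the threonine synthase THR4, fell by 0.33 and 0.29 (limma adjusted p = 1.8e-04 and 7.6e-04). After quantile and cyclic loess normalization THR1 had -0.21 and -0.18 and THR4 -0.17 and -0.14. HOM6 fell by 0.19 as deposited and was not called after quantile or cyclic loess normalization. ILV1, the deaminase that sends threonine towards isoleucine, fell by 0.28, and by 0.15 after cyclic loess normalization. AGX1, which makes glycine from glyoxylate, was the largest rise of the 33 genes. It rose from 33.4 ± 2.35 to 91.2 ± 5.27 (n = 3, SD; 2.73-fold, adjusted p = 3.6e-07), a log2 difference of 1.45 that was 1.04 after quantile normalization and 0.76 with a pseudocount of 50. DLD3, which oxidises the hydroxyglutarate that SER3 and SER33 are known to form as a side product, rose by 0.27 (adjusted p = 0.0015), and by 0.17 after median centring.

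Among enzymes that consume serine, 3 of 6 fell and 1 rose, against 29.1% and 37.1% over all genes. The cystathionine synthase CYS4, the seryl-tRNA synthetase SES1 and LCB2 of sphingolipid synthesis fell by 0.42, 0.38 and 0.23, and LCB2 was not called after cyclic loess normalization, where CYS4 had -0.26 and SES1 -0.23. CHO1, the phosphatidylserine synthase, rose from 258 ± 4.76 to 370 ± 14.3 (n = 3, SD; 1.43-fold, limma adjusted p = 2.1e-05). Of 3 measured enzymes that consume glycine, GSH2, the glutathione synthetase, fell from 313 ± 15.3 to 192 ± 2.27 (n = 3, SD; log2 difference -0.71, adjusted p = 3.6e-06), the largest fall of the 33 genes. The glycyl-tRNA synthetase GRS1 fell by 0.47 (-0.30 after quantile and cyclic loess normalization), and HEM1, the first enzyme of heme synthesis, had 0.01 (adjusted p = 0.89). Uptake genes were divided, with 3 of 6 lower and 2 higher, against 29.1% and 37.1% over all genes. The permeases GNP1, GAP1 and AGP1 fell, with log2 differences of -0.37, -0.27 and -0.25, and GNP1 had -0.22 after cyclic loess normalization. The call of AGP1 was lost after cyclic loess normalization (-0.20) and without wild type replicate 2 (-0.18). That of GAP1 was lost without any one of 4 arrays (-0.20 to -0.25). DIP5 rose by 0.33 and the amino acid sensor SSY1 by 0.66 from a dim signal of 47.2 ± 0.651 (SD, n = 3), a rise that was 0.27 after quantile normalization.

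**Figure D4:**
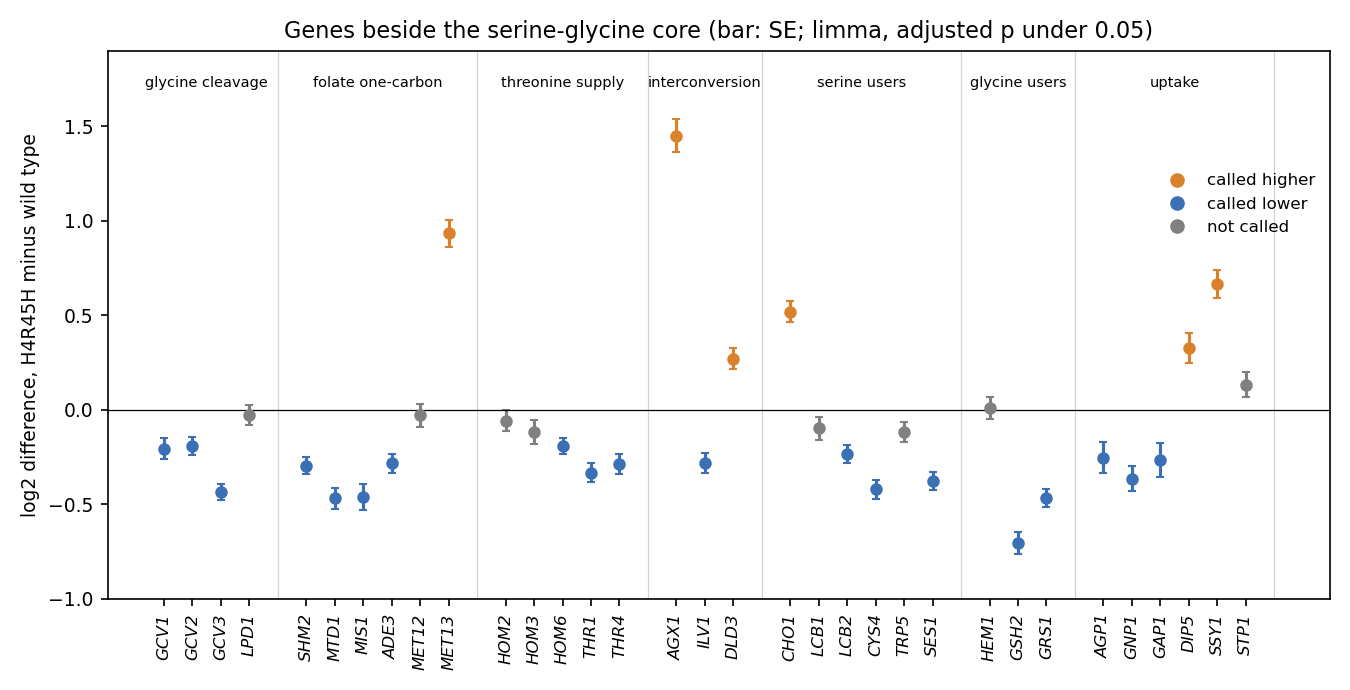
Log2 difference (H4R45H minus wild type, y axis; bars are SE) of 33 genes in 7 lists beside the serine-glycine core, in orange where called higher, blue where called lower and grey where not called by limma at an adjusted p under 0.05. Most genes lie between -0.5 and 0, with AGX1 at 1.45 and GSH2 at -0.71 as the ends of the range.

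General amino acid control, the response by which Gcn4 raises amino acid synthesis genes, was read from 14 measured target genes that act outside the serine branch. Of these 4 rose and 4 fell, against 37.1% and 29.1% over all genes, with a median of -0.08. Over the 4 scalings 2 to 6 rose and 2 to 6 fell. ARG4 and LYS1 rose 1.72-fold and 1.62-fold (limma adjusted p = 3.8e-06 and 1.2e-05), while HIS1 and ASN1 fell by 0.62 and 0.43. ASN1 had -0.26 after quantile and -0.25 after cyclic loess normalization. GCN4 itself had a difference of -0.15, called as deposited, which turned to 0.03 after quantile and cyclic loess normalization.

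The factors known to act at SER3 are those that remodel, assemble or transcribe chromatin across its promoter. This list too was written with earlier results of these data known, so its counts are a description and no test. Of 19 such genes 0 were called higher and 11 lower, against 37.1% and 29.1% over all genes. Their median was -0.27, and 11 to 15 were lower after the other scalings. Of the SWI/SNF subunits, SWI1 fell by 0.62, SWI3 by 0.61 and SNF6 by 0.52 (limma adjusted p = 9.6e-05, 1.4e-04 and 1.1e-04), and SWI3 had -0.40 with a pseudocount of 50. The catalytic subunit SNF2 had -0.12 and SNF5 0.15, and neither was called. LEO1 of the Paf1 elongation complex fell by 0.57 (adjusted p = 4.0e-05). The histone chaperones that keep SER3 low by restoring nucleosomes behind the polymerase were singled out after their values were seen. SPT6 fell from 326.5 ± 19.0 to 243 ± 6.81 (n = 3, SD; log2 difference -0.42, adjusted p = 1.7e-04) and SPT16 from 565 ± 5.26 to 437 ± 12.6 (n = 3, SD; -0.37, adjusted p = 8.6e-05). POB3, the partner of SPT16 in the FACT complex, fell by 0.23 and was not called after cyclic loess normalization (adjusted p = 0.099).

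SER3 was also set beside 11 other genes known for control by transcription across or near them. Of these 5 rose and 3 fell, against 37.1% and 29.1% over all genes, with a median of 0.07. Over the 4 scalings 3 to 5 rose and 1 to 5 fell. IMD2, an enzyme of guanine nucleotide synthesis, rose from 148 ± 10.3 to 332 ± 5.48 (n = 3, SD; 2.24-fold, limma adjusted p = 2.5e-07), though its probe set may also bind other transcripts. URA8, a CTP synthase, rose 1.66-fold and the flocculin gene FLO11 2.39-fold, and FLO11 had a log2 difference of 0.69 with a pseudocount of 50. The FLO11 signal was dim and uneven in wild type, at 31.1, 67.2 and 35.5. Its log2 difference was 1.04 without wild type replicate 1 and 1.59 without wild type replicate 2. IME4 rose 1.84-fold, with a wild-type signal of only 5.27, and was not called after quantile or cyclic loess normalization. The phosphate transporter PHO84 fell by 0.52 (adjusted p = 3.3e-06). None of the 11 reached the size of the SER3 difference, but SER3 was chosen by that difference, so nothing is read from this.

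Neither of the measured genes nearest to SER3 was called higher. In the RefSeq gene order SER3 is preceded by SRG1, AIM9 and YER079W and followed by UTP7, GET2 and YER084W. No probe set was named for SRG1, whose annotation overlaps the start of SER3, and SRG1 was not analysed here. Whether the SER3 probes bind SRG1 as well was not tested. AIM9 gave 242 ± 3.97 in wild type and 236 ± 15.3 in H4R45H (n = 3, SD; log2 difference -0.04, limma adjusted p = 0.64). UTP7, a ribosome assembly factor, fell by 0.20 (adjusted p = 0.016), a call that did not hold without wild type replicate 3 (log2 difference -0.15) or under cyclic loess scaling. GET2 had 0.04 (adjusted p = 0.76). YER079W, further upstream, rose by 0.86 (adjusted p = 3.3e-04), from 69.0 ± 7.79 to 126 ± 26.7 (SD, n = 3), and had 0.56 with a pseudocount of 50. The next genes of SER33 are RPN2, a proteasome subunit with a difference of 0.14 that lost its call under 7 of the alternatives, and the meiotic gene SPO22, which rose by 1.05 from a dim signal of 21.4 ± 1.70 (SD, n = 3) and had 0.37 after quantile normalization. CHA1 is the sixth protein-coding gene from its chromosome end, close to the silent mating cassette HML. Its neighbour VAC17 fell by 0.37 (adjusted p = 0.0021; -0.62 after quantile normalization) and HMLALPHA1 gave signals of 1.03 ± 0.379 and 1.43 ± 0.723 (SD, n = 3), hardly above 0 in either strain.

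**Figure D5:**
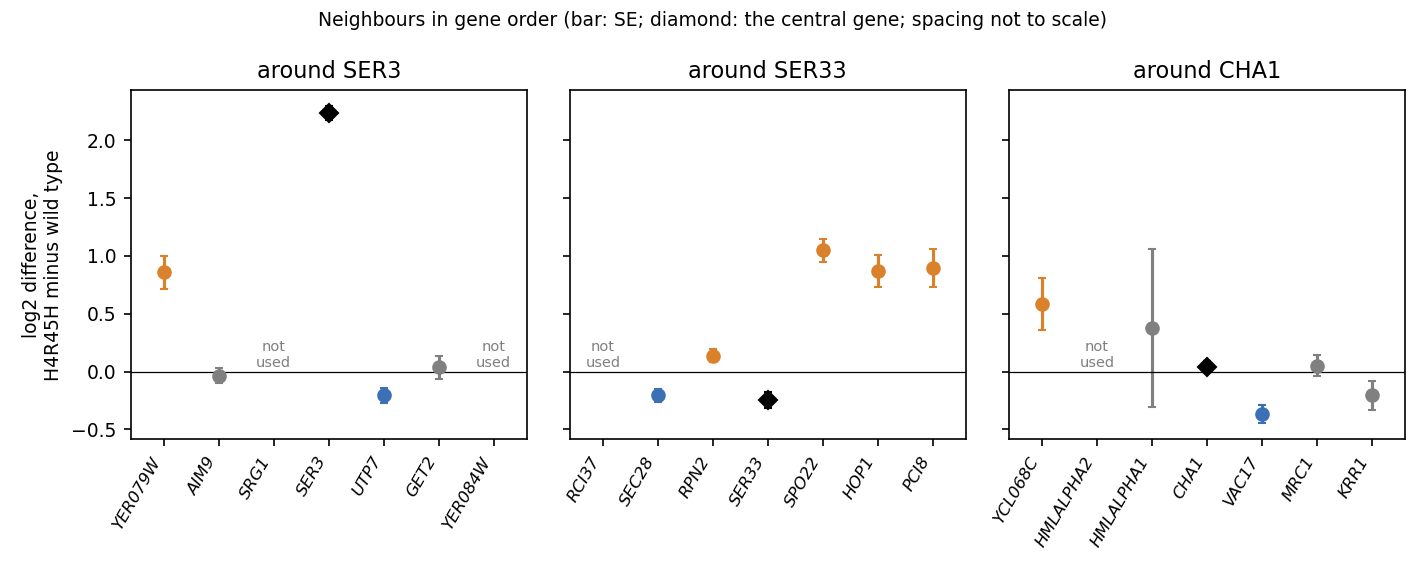
Log2 difference (H4R45H minus wild type, y axis; bars are SE) of the 3 nearest annotated genes on each side of SER3, SER33 and CHA1 in gene order, with orange for called higher, blue for called lower, grey for not called, a black diamond for the central gene and spacing not to scale. SER3 lies at 2.23 while its measured neighbours lie between -0.20 and 0.86.

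By the per-array pattern, each array's log2 signal less the gene's wild-type mean, the genes nearest to SER3 over the 6 arrays were HSP26, VPS73, FLO1, HBT1 and DDR2. Their root mean square distances were 0.054, 0.082, 0.096, 0.117 and 0.122 on the log2 scale, among genes whose mean over all 6 arrays was above the dimmest 25% of probe sets, a limit of 78.3. VPS73, FLO1 and HBT1 had wild-type means of 65.7, 68.4 and 51.5, under that limit, so these 3 of the 5 entered through their H4R45H signals. HSP26, with signals of 229.7, 271.2 and 257.9 in wild type and a mean of 1163 ± 77.8 in H4R45H (SD, n = 3), tracked SER3 most closely. VPS73 is named for vacuolar sorting, and FLO1 encodes a flocculin, HBT1 a protein of mating cell shape and DDR2 a stress-induced protein. With 6 arrays in 2 strains, this likeness is mostly the shared size of the strain difference. The other 7 serine and glycine genes, with differences between -0.56 and 0.56, could not have been among them. Nothing is read from their absence.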

How the data were processed

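Total RNA (about 20 µg a sample) was made into biotin-labelled cRNA and hybridised to one-colour Affymetrix arrays, 3 a strain, per the labels. The authors deposited linear intensities, 1 for each probe set. MAS5 is named in the submitters' processing notes. Its version, scaling target and detection calls are not given in the sources used here. Of 5716 probe sets 5498 had 1 gene in the platform annotation and 218 none, and all 5449 genes were matched to RefSeq by Entrez identifier. A gene was read from its probe set of highest mean log2 signal, and 47 genes had several. The deposited scale was kept, 7 values at 0 were raised to 0.1, and log2 was taken. limma 3.58.1 in R 4.3.3 (lmFit, eBayes with trend) compared the strains with two-sided p-values, adjusted over the 5716 probe sets by Benjamini-Hochberg. The fit was tested on simulated data. Classes of like signal split all genes into 10 equal groups by wild-type mean. No array was a copy of another, and no columns of other samples were used.

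The members and lists were chosen with earlier results of these data known. Named are the 8 members, up to 4 called genes of each list by size (every gene of lists of 6 or fewer may be), the 3 neighbours on each side of SER3, SER33 and CHA1, the isozyme pairs and the 5 genes nearest to SER3. SPT6, SPT16, POB3, SNF2, SNF5, PHO84, STE2 and the 4 genes following SER3 in its class were named after their values were seen. ADE5,7 and TRP1 were not analysed here, and another listed gene is not reported here. Same-numbered arrays of the strains did not deviate together (correlations of 0.027, -0.017 and -0.034), so the main fit has no replicate block. Alternatives were quantile, median and cyclic loess scaling, the replicate block, a pseudocount of 50, an untrended variance, a filter on the dimmest 25% of probe sets, averaging the probe sets of a gene and leaving out each array. The number of arrays limits the precision.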

Additional observations from a re-analysis of the deposited data

How the results depend on the processing

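The SER3 difference, which chose the gene and carries no test, was 2.02 (pseudocount of 50) to 2.35 (cyclic loess) over the 14 alternatives. The gap between SER3 and SER33 was 2.48 as reported, 2.38 to 2.54 when leaving out each array in turn, and 2.22 with a pseudocount of 50, which by its construction shrinks differences of dim signals. The 8 genes, whose calls are a description only, had 6 or 7 calls over these alternatives, and the 33 related genes 20 to 29. With the replicate block 6 of the 8 genes were called, SHM1 being lost, 25 of the 33 related genes and 3480 of all genes. Same-numbered arrays did not deviate together, but with 3 arrays a strain this cannot exclude a pairing by replicate number. SHM1 was lost under 9 alternatives, with the replicate block, without the variance trend and without 5 of the 6 single arrays (each but H4R45H replicate 1) among them. The SHM1 difference turned to 0.018 (quantile) and 0.036 (cyclic loess), and that of GCN4 to 0.028 and 0.026. Dim genes turned too: ASG7 had -0.28 after quantile and -0.12 after cyclic loess normalization, MF(ALPHA)1 -0.33 and -0.18, YCL068C -0.26 and -0.18, and MF(ALPHA)2 -0.041 after quantile normalization. The cause of these turns was not tested. AGP1 and GAP1 were each lost without single arrays (AGP1 without wild type replicate 2, GAP1 without replicates 2 or 3 of wild type or 1 or 2 of H4R45H), as was LYS21 (replicates 1 or 3 of either strain). Whether bright signals are compressed is not known.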
